A study of Neurospora crassa with 2 samples.

Results

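The casein kinase genes of the filamentous fungus Neurospora crassa were compared between a upf1 knockout strain and a wild-type strain. The 5 genes were taken by identifier from a table of 9454 genes, and each was measured in both libraries. They are ck-1a (NCU00685) and ck-1b (NCU04005), which encode casein kinase I proteins, cka (NCU03124), which encodes the catalytic subunit of casein kinase II (CK2), and ckb-1 (NCU05485) and ckb-2 (NCU02754), which encode its regulatory subunits. The deposited descriptions are casein kinase I isoform delta, casein kinase 1b, casein kinase II subunit alpha, casein kinase II regulatory subunit and casein kinase II subunit beta-2, and no other gene of the table was described as a casein kinase.

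Both strains were grown alike and received no treatment. Hyphae came from cultures kept for 2 days in constant light in medium with 2% glucose, after 2 weeks on slants, and polyadenylated RNA from 3 flasks was pooled for each strain. The knockout and the wild type are therefore 1 library each, and no difference has a replicate check. The labels give no allele, strain background or clone number for either strain. Table reads numbered 56306422 in the knockout, against 28189643 in the wild type. The targeted gene, listed under the RefSeq symbol prd-6 (NCU04242), stood at 2.78 RPKM in the knockout, against 22.6 RPKM in the wild type, which is the direction the labels give. Its reads numbered 654 in the knockout, against 2641 in the wild type, so reads of the gene were not absent from the knockout library. An RPKM value divides the reads by the length of the gene model and by the library total. Conidiation genes, which mark the other cell type that a hyphal culture can hold, differed in both directions: con-6, con-8, con-10 and con-13 passed 2-fold on the higher side in the knockout, while eas and fl passed it on the lower side. None of the 6 was at 0. Their summed level was 2529 RPKM in the knockout, against 16070 RPKM in the wild type, and eas alone set this direction, at 1619 RPKM in the knockout, against 15983 RPKM in the wild type. The other 5 summed to 911 RPKM in the knockout, against 86.8 RPKM in the wild type. Their part in the results below was not tested, and in such bulk RNA fewer cells of a type and less RNA per cell cannot be told apart.

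Casein kinases are constitutively active serine/threonine kinases with many substrates. In the Neurospora clock the FRQ protein is phosphorylated progressively through its daily cycle, and casein kinase I bound to FRQ is a main kinase of this process. CK2 is an assembly of catalytic and regulatory subunits that also phosphorylates FRQ, and the long-period clock mutants period-3 and chrono carry lesions in its genes. RefSeq lists these names as synonyms, prd-3 for cka and chr for ckb-1. UPF1 is the central RNA helicase of nonsense-mediated decay, which removes mRNAs whose stop codon is premature or far from the tail, and its Neurospora gene is itself a period gene, prd-6. The comparison addresses whether the kinase transcripts stood at other levels in the upf1 knockout strain.

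The casein kinase I genes were above their wild-type levels and the CK2 genes were not. Both casein kinase I transcripts were more abundant in the knockout library, ck-1a by 2.41-fold and ck-1b by 1.34-fold. The catalytic CK2 transcript and ckb-1 stood at 0.966 and 0.976 of their wild-type levels, and ckb-2 was 1.28-fold lower. Only ck-1a passed 2-fold, which made 1 of 5 genes higher and none lower. Counted on the scale of log2(RPKM + 1), 16.5% of the 7367 genes that reached 5 RPKM in either library passed 2-fold on the higher side in the knockout, and 5.52% passed it on the lower side. The higher side held 74.9% of the genes past 2-fold, against 62.4% with TMM scaling, which sets the libraries level on a trimmed mean of gene ratios, and 58.5% after centring within classes of gene model length. All 5 casein kinase genes reached 5 RPKM in both libraries. A share of 1 in 5 is near that background and says nothing of the group as a whole.

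**Figure D1:**
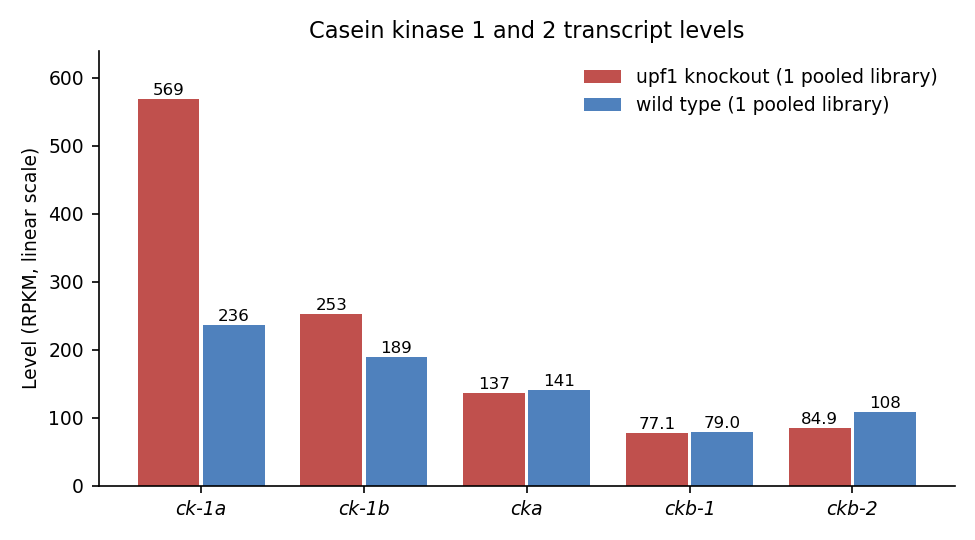
Transcript level (RPKM, linear scale) of the 5 casein kinase genes, with the upf1 knockout library in red and the wild-type library in blue, 1 pooled library each. The bars of ck-1a stand at 569 RPKM in the knockout and 236 RPKM for the wild type, whereas the paired bars of cka and ckb-1 are nearly level.

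The ck-1a gene occupies positions 7563398 to 7566370 of supercontig 1 (plus strand). Positions are those the authors deposited. The deposited supercontig names carry a prefix, left out here, that may mark the genome build. No source used here states the build otherwise. The knockout library held 89438 reads of the gene and the wild-type library 18389 reads. Its level was 569 RPKM (565 to 572) in the knockout, against 236 RPKM (233 to 239) in the wild type. Brackets hold 95% exact Clopper-Pearson intervals, which measure counting error alone. The fold of 2.41 had an interval of 2.37 to 2.45. The strains did not overlap within counting error, whereas the spread between cultures is unknown.

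The transcript of ck-1a was abundant in both strains. It ranked 142nd of 9454 genes by RPKM in the knockout, against 404th in the wild type. The difference of 333 RPKM between the libraries was the 34th largest gain of any gene. Differences of this relative size were common among abundant genes, however. Of 1032 genes with a mean of at least 100 RPKM over the libraries, 13.4% passed 2-fold on the higher side in the knockout and 9.69% on the lower side. ck-1a had the 99th highest log2 ratio among them. Its log2 ratio of 1.27 stood at percentile 88.6 of all 7367 genes. Ratios depended on gene model length in these libraries, and the model of ck-1a, at 2637 bp, falls among the longer ones. In its length class (2436 to 3106 bp, 921 genes) the median log2 ratio was 0.00 and 8.58% of genes were at least 2-fold higher. ck-1a ranked 55th in that class. The classes of the CK2 genes, which have shorter models, had medians of 0.16 (cka and ckb-1) and 0.19 (ckb-2).

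The deposited gene models behind RPKM were 2637 bp for ck-1a, 3043 bp for ck-1b, 1747 bp for cka, 1859 bp for ckb-1 and 1634 bp for ckb-2, and each was the same in both libraries. They are shorter than the genomic spans by 336, 614, 303, 69 and 165 bp, in the same order of genes. No source used here gives the positions over which reads were counted.

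The second casein kinase I gene, ck-1b, occupies positions 2219121 to 2222777 of supercontig 6 (plus strand). Its reads numbered 45902 in the knockout, against 16968 in the wild type. Its level was 253 RPKM (251 to 255) in the knockout, against 189 RPKM (186 to 192) in the wild type, 1.34-fold higher (1.32 to 1.36). This difference too exceeded counting error but was smaller than that of ck-1a. The log2 ratio of 0.42 lay within the interquartile range of all genes (-0.28 to 0.69) and ranked 2620th of 7367. It was 0.27 after centring on the median gene and 0.24 with TMM scaling.

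The casein kinase I genes therefore differed from each other as well as between strains. In the knockout library ck-1a stood at 2.25 times the RPKM of ck-1b, and in the wild-type library at 1.25 times. The ratio of these ratios, which does not depend on how the libraries were scaled, was 1.80 (1.76 to 1.84, normal approximation of the log odds ratio of the reads, counting error only). ck-1a supplied 69.2% of the summed casein kinase I level in the knockout, against 55.6% in the wild type. On the deposited scaling the sum itself was 822 RPKM in the knockout, against 425 RPKM in the wild type, 1.93-fold higher. The sum was not computed with TMM scaling, under which the log2 ratios of ck-1a and ck-1b were smaller, at 1.08 and 0.24. RefSeq lists 3 transcripts for ck-1a and 2 for ck-1b, and the deposited description of ck-1a carries the word variant. The table gives 1 value per gene, so differences between transcript forms were not analysed here. No source used here says how reads matching both genes were counted.

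The catalytic CK2 gene, cka, occupies positions 4642605 to 4644654 of supercontig 1 (minus strand). Its reads numbered 14229 in the knockout, against 7293 in the wild type. Its level was 137 RPKM (134 to 139) in the knockout, against 141 RPKM (138 to 145) in the wild type, 1.03-fold lower (1.01 to 1.06). The interval of the fold excludes 1 by a narrow margin, although the intervals of the levels touch. The log2 ratio of -0.05 lay within the interquartile range of all genes, whose median was 0.15 (-0.02 with TMM scaling). Relative to the median gene, cka stood at -0.20 and ckb-1 at -0.19.

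The regulatory subunit gene ckb-1 occupies positions 1760759 to 1762686 of supercontig 6 (plus strand). Its reads numbered 8551 in the knockout, against 4338 in the wild type. The levels of 77.1 RPKM (75.5 to 78.8) in the knockout and 79.0 RPKM (76.6 to 81.4) in the wild type overlapped within counting error. Its fold was 0.976 (0.941 to 1.01), which on the deposited scale leaves room for a level up to 1.06-fold lower.

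The other regulatory gene, ckb-2, occupies positions 3450005 to 3451803 of supercontig 1 (plus strand). Its reads numbered 8274 in the knockout, against 5230 in the wild type. Its level was 84.9 RPKM (83.1 to 86.7) in the knockout, against 108 RPKM (105 to 111) in the wild type, 1.28-fold lower (1.23 to 1.32). The strains did not overlap within counting error. With a log2 ratio of -0.35, ckb-2 was the one casein kinase gene below the interquartile range of all genes, at percentile 21.5.

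**Figure D2:**
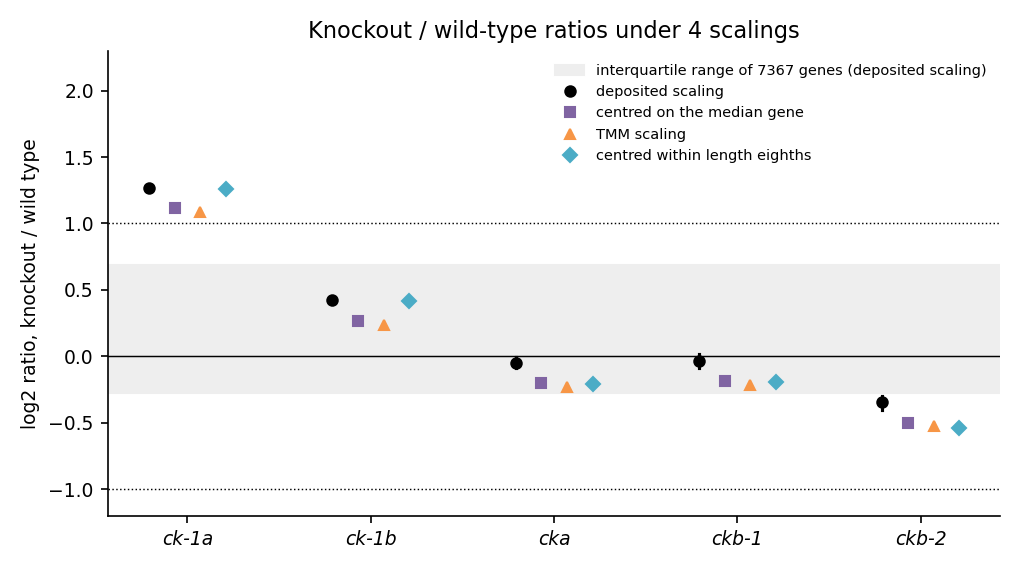
Log2 ratio (knockout / wild type) of each casein kinase gene under the deposited scaling and after centring on the median gene, TMM scaling and centring within eighths of gene model length. Vertical lines on the black points are 95% counting intervals, the grey band is the interquartile range of 7367 genes and dotted lines mark 2-fold. The points of ck-1a run from 1.08 to 1.27, all above 2-fold, and those of the other genes lie inside the dotted lines.

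The CK2 transcripts kept a similar balance for cka and ckb-1, and a different one for ckb-2. In the knockout library ckb-1 stood at 0.565 times the RPKM of cka, and in the wild-type library at 0.559 times, with a ratio of ratios of 1.01 (0.965 to 1.06). For ckb-2 the values were 0.622 times cka in the knockout and 0.767 times in the wild type, a ratio of ratios of 0.811 (0.775 to 0.848). Between the regulatory genes, ckb-1 stood at 0.908 times ckb-2 in the knockout and 0.729 times in the wild type, a ratio of ratios of 1.25 (1.18 to 1.31), and ckb-2 was the higher of the pair in both libraries. The catalytic transcript stood at 0.843 times the summed regulatory level in the knockout and 0.754 times in the wild type. Relative to cka, both casein kinase I genes were higher in the knockout. ck-1a was 4.16 times cka in the knockout and 1.67 times in the wild type. ck-1b was 1.85 times cka in the knockout and 1.34 times in the wild type.

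The order of levels was ck-1a, ck-1b, cka, ckb-2 and ckb-1 in both libraries. No neighbours in this order had overlapping counting intervals in RPKM, the closest being ckb-2 and ckb-1 in the knockout, at 84.9 (83.1 to 86.7) and 77.1 (75.5 to 78.8). How far any of these levels vary between cultures of a strain is unknown.

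Beside other kinases, ck-1a was the most abundant in both libraries among 75 genes with a protein kinase product name and at least 5 RPKM in either library. In the knockout it stood at 2.25 times the next, which was ck-1b. In the wild type it stood at 1.22 times the next, which was camk-1, a calcium/calmodulin-dependent kinase gene, at 174 RPKM in the knockout, against 193 RPKM in the wild type. Of the summed RPKM of all 80 genes on that list, ck-1a made up 15.3% in the knockout, against 6.57% in the wild type. The list was matched by name and also holds ckb-2, which is no kinase, and the organizer gene NCU01389 described below. It misses kinase genes with other product names, so it is not the full set of kinases. Without the casein kinase genes it had 71 members at 5 RPKM or more, of which 2 were at least 2-fold higher and 3 at least 2-fold lower in the knockout, or 2.82% and 4.23% beside the 16.5% and 5.52% of all genes. The number at least 2-fold lower was 5 with TMM scaling or median centring. The median log2 ratio of the 71 was -0.15, beside 0.15 over all genes. Centred within classes of gene model length, these medians were -0.16 and 0, so the gap was smaller. The shares past 2-fold given here are without such centring. The log2 ratio of ck-1a was the third highest of the 75.

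The genes above it were div-4 (NCU04426), described as a cell division protein kinase, and NCU01389, described as an organizer of a mitogen-activated protein kinase and so itself no kinase by name. div-4 stood at 49.8 RPKM in the knockout, against 13.8 RPKM in the wild type, 3.61-fold higher (3.34 to 3.92). NCU01389 stood at 44.1 RPKM in the knockout, against 15.6 RPKM in the wild type, 2.83-fold higher (2.61 to 3.07). At the other end were stk-22, stk-52 and un-1. stk-22 (NCU03523) stood at 9.05 RPKM in the knockout, against 29.3 RPKM in the wild type. stk-52 (NCU08767), described as the kinase RIO1, which acts in ribosome maturation in yeast, stood at 24.3 RPKM in the knockout, against 66.7 RPKM in the wild type. un-1 (NCU08346) stood at 11.8 RPKM in the knockout, against 26.7 RPKM in the wild type. All of these lay far below ck-1a in level.

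**Figure D3:**
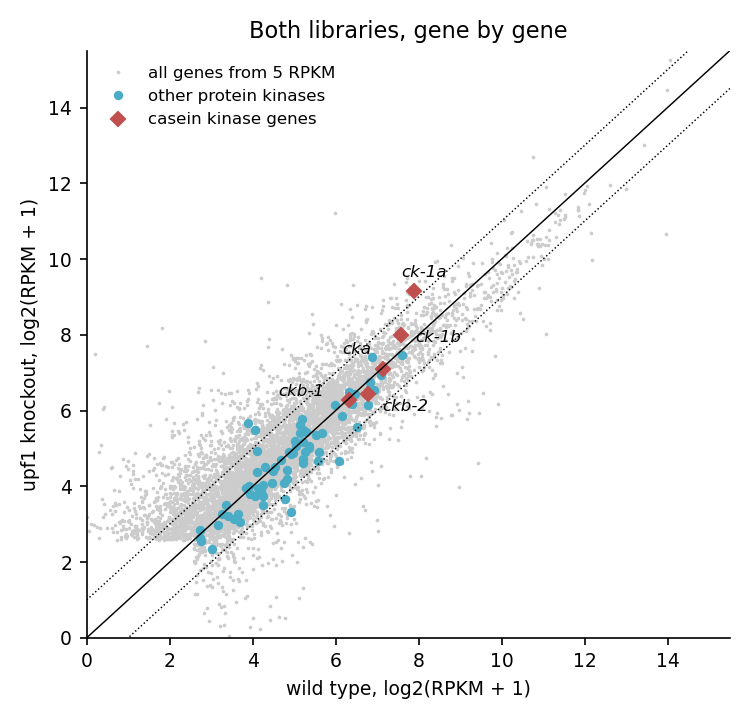
Level in the upf1 knockout library against level in the wild-type library, both as log2(RPKM + 1), for 7367 genes (grey), other protein kinases (blue) and the 5 casein kinase genes (red). The solid line marks equal levels and the dotted lines 2-fold. ck-1a lies above the upper dotted line, while 48 of the 71 other genes with a protein kinase product name lie below the line of equal levels.

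Other enzymes that act on FRQ or its partners in Neurospora were read from a list of 10 genes. All 10 lay within 2-fold, with a median log2 ratio of -0.08 (-0.26 with TMM scaling). Most genes did so too, 5746 of the 7367 genes and 66 of the 71 others with a protein kinase product name. The glycogen synthase kinase gene NCU04185 (RefSeq symbol prk-1) was the highest, at 169 RPKM in the knockout, against 117 RPKM in the wild type, 1.45-fold higher (1.42 to 1.49). The checkpoint kinase gene prd-4, which links DNA damage to FRQ phosphorylation, was the lowest, at 23.5 RPKM in the knockout, against 36.2 RPKM in the wild type, 1.54-fold lower (1.46 to 1.61). The protein kinase A genes lay between, with pkac-1 at 29.0 RPKM in the knockout, against 37.2 RPKM in the wild type, pkac-2 at 70.5 RPKM in the knockout, against 62.8 RPKM in the wild type, and the regulatory subunit gene mcb at 51.4 RPKM in the knockout, against 55.7 RPKM in the wild type.

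The phosphatases on that list, which remove phosphates from FRQ or the white collar proteins, had log2 ratios between -0.08 and 0.11. The PP1 catalytic gene NCU00043 (pph-3) had 107 RPKM in the knockout, against 112 RPKM in the wild type. The PP2A catalytic gene pph-1 had 83.1 RPKM in the knockout, against 81.6 RPKM in the wild type, and its regulatory partner rgb-1 had 132 RPKM in the knockout, against 140 RPKM in the wild type. The PP4 gene pp4 had 41.8 RPKM in the knockout, against 38.5 RPKM in the wild type. The level of ck-1a differed more between the strains than that of any listed phosphatase. Relative to frq, the transcript of its substrate, ck-1a stood at 5.91 times the RPKM in the knockout, against 3.30 times in the wild type. frq itself was at 96.2 RPKM in the knockout, against 71.4 RPKM in the wild type. All 6 core clock genes examined (frq, frh, wc-1, wc-2, fwd-1 and vvd) lay within 2-fold, as did most of the 7367 genes. The median log2 ratio of the 6 was 0.22 (0.05 with TMM scaling).

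**Figure D4:**
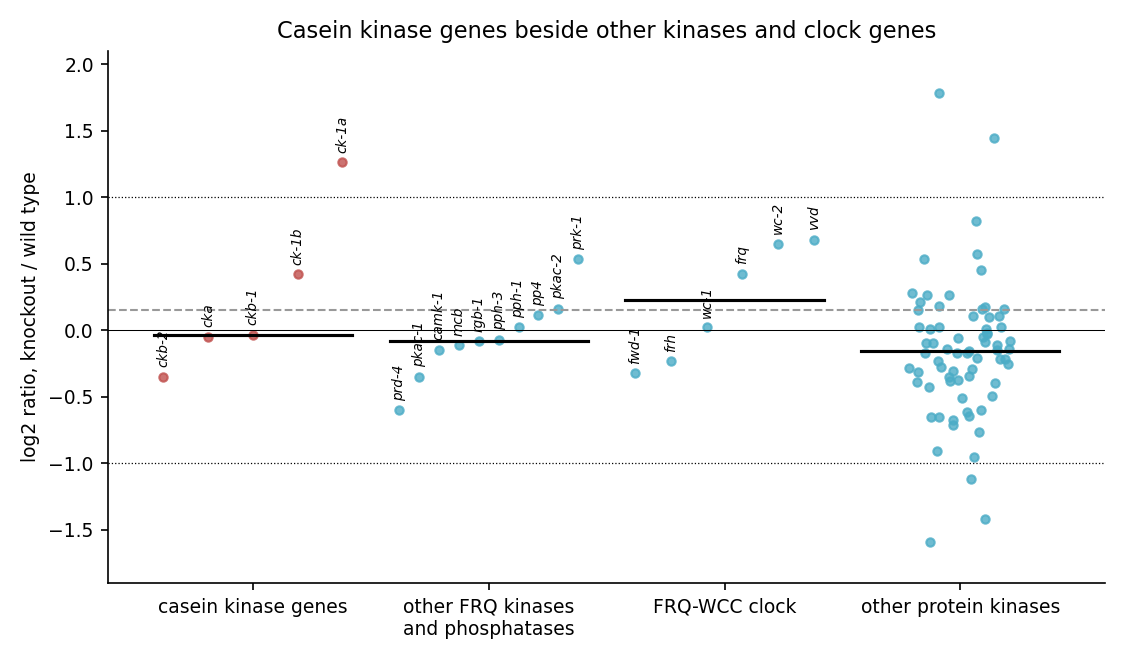
Log2 ratio (knockout / wild type) of single genes in 4 lists, with black bars at list medians, the dashed line at the median of all genes (0.15) and dotted lines at 2-fold. The right column holds 71 genes with a protein kinase product name, some of which are also in the second column. ck-1a is the only point of the first 3 columns beyond 2-fold.

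No casein kinase gene model overlaps another model of the table. The gene next downstream of ck-1a, NCU00684, described as an endonuclease/exonuclease/phosphatase, lies 1502 bp away on the same strand. It was at 18.6 RPKM in the knockout, against 25.1 RPKM in the wild type, lower in the knockout where ck-1a was higher. On the upstream side NCU00687, a hypothetical protein gene on the opposite strand 12088 bp away, was at 29.3 RPKM in the knockout, against 58.2 RPKM in the wild type. Neither neighbour shared the direction of ck-1a.

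Beside ck-1b, the divergent gene NCU04006, 599 bp upstream, had 1.56 RPKM in the knockout, against 2.26 RPKM in the wild type, and NCU04003, described as ERP1 protein, had 96.4 RPKM in the knockout, against 84.3 RPKM in the wild type. Beside cka, NCU03123 lies 228 bp downstream on the same strand, at 4.46 RPKM in the knockout, against 3.14 RPKM in the wild type, and NCU03125 lies 3010 bp upstream, at 103 RPKM in the knockout, against 85.8 RPKM in the wild type. NCU04006 and NCU03123 were thus weakly expressed in both strains. The neighbours of ckb-1 stand 4634 bp (NCU12105, 41.7 RPKM in the knockout, against 41.9 RPKM in the wild type) and 14757 bp away (NCU10009, 4.08 RPKM in the knockout, against 3.18 RPKM in the wild type). ckb-2 is closely flanked, with NCU11228 at 472 bp and NCU02755 at 247 bp, both on the opposite strand. NCU11228 had 39.7 RPKM in the knockout, against 41.5 RPKM in the wild type, and NCU02755 had 59.1 RPKM in the knockout, against 59.0 RPKM in the wild type. The 1.28-fold lower level of ckb-2 thus stood between genes whose log2 ratios were -0.06 (NCU11228) and 0.0026 (NCU02755). No source used here says whether reads were counted by strand.

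**Figure D5:**
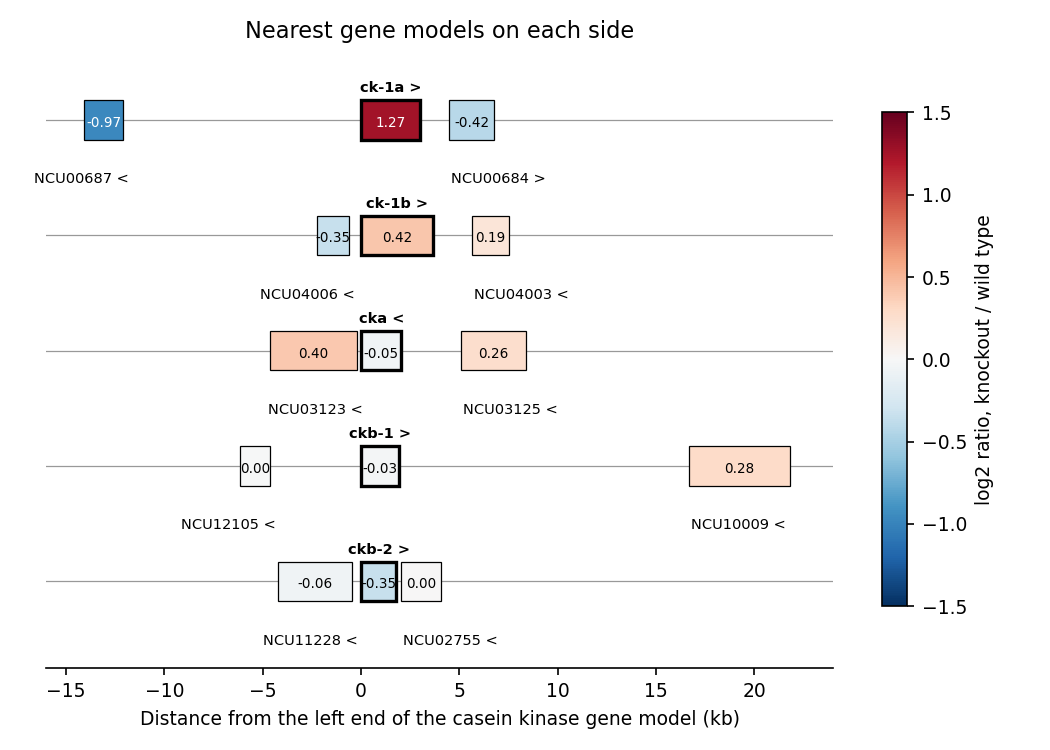
Casein kinase gene models (bold outline) and the nearest model on each side, drawn to scale by distance (kb) from the left end of the casein kinase model, with colour and numbers giving the log2 ratio (knockout / wild type) and arrowheads the strand. The 1.27 of ck-1a lies between neighbours at -0.97 and -0.42.

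The genes closest to each casein kinase gene in both libraries were found as the smallest Euclidean distance over the 2 values of log2(RPKM + 1). With 2 libraries this says only that level and ratio were alike. For ck-1a they were NCU04343 (RefSeq symbol egt-1, described as an adaptin ear-binding protein, distance 0.15), at 540 RPKM in the knockout, against 216 RPKM in the wild type, the ferrochelatase gene NCU08291 (0.17), at 559 RPKM in the knockout, against 210 RPKM in the wild type, and NCU01424 (0.29), at 678 RPKM in the knockout, against 259 RPKM in the wild type. For ck-1b they were the proteasome gene pcb-4 (distance 0.08), NCU00137 (0.08) and NCU02261 (0.09). The genes nearest to cka were ad-9 of purine synthesis (0.05), the PP2A gene rgb-1 (0.05) and tca-6 (0.06). Those nearest to ckb-1 were the proteasome gene rpn-6, the vacuolar ATPase gene vma-8 and vib-1, and those nearest to ckb-2 were NCU03804, the chaperonin gene NCU09700 and NCU05227, each within 0.05. The closest match of ck-1a was farther than that of any other casein kinase gene. Such a distance also depends on how many genes lie at similar levels. By RPKM ck-1a ranked 142nd of 9454 genes in the knockout, against 404th in the wild type.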

How the data were processed

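Raw read counts per gene and RPKM values were deposited for 1 pooled library per strain, per the file headers. RPKM, as computed by the authors, divides reads by gene model length and library total. The submitters' processing notes name Bowtie 0.12.2. The sources used here do not give the annotation, counting tool, strand use or treatment of multiply mapping reads. Columns were matched to strains by name, and 8930 of 9454 identifiers matched a RefSeq table of assembly NC12, used for names.

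Library totals were recovered from reads and RPKM as 59645570 (knockout) and 29546475 (wild type). The limit for a gene without reads is 3 reads, or 0.0503 RPKM (knockout) and 0.102 RPKM (wild type) for a gene of 1 kb. Log2 ratios used a pseudocount of 1, which understates differences of low genes. Folds are ratios of reads over totals. With 1 library per strain no test was made and no p-value is given. Reads are not independent molecules, so intervals cover counting error only. The code for library totals, folds and fold intervals was run on simulated data. The log2 ratios and the intervals of ratios between genes were not part of that run. Python 3.11.15, SciPy 1.17.1 and edgeR 4.0.16 (TMM factors) were used.

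Genes and lists were chosen with earlier results of these data known. Named genes are the 5 casein kinase genes, all genes of the clock, FRQ enzyme and conidiation lists, the 3 highest and 3 lowest kinase ratios, the nearest neighbours and the 3 closest genes in level. camk-1 is also on the FRQ enzyme list. No sequence of these genes was used here.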

Additional observations from a re-analysis of the deposited data

How the results depend on the processing

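All 5 casein kinase genes kept the sign of their log2 ratio under all 6 alternatives tried, and ck-1a stayed above 2-fold in each (1.08 to 1.27). Centred on the median gene, the log2 ratios of ck-1a, ck-1b, cka, ckb-1 and ckb-2 were 1.11, 0.27, -0.20, -0.19 and -0.50. With TMM scaling they were 1.08, 0.24, -0.23, -0.21 and -0.53. Centred within eighths of gene model length, cka, ckb-1 and ckb-2 were at -0.21, -0.20 and -0.54. These shifts come from the offset subtracted, 0.15 for the median gene. Pseudocounts of 0.1 and 5 and reads without a pseudocount moved no casein kinase ratio beyond its counting interval, and neither a pseudocount of 5, reads without a pseudocount nor length centring, the 3 alternatives run for ratios between casein kinase genes, moved those beyond theirs. Protein kinases at least 2-fold lower numbered 5 under TMM scaling or median centring and 2 with a pseudocount of 5, in place of 3. Genes at least 2-fold higher numbered 774 with a filter of 20 RPKM, in place of 1214, but that filter also keeps fewer genes to count. The other alternatives gave from 831 (pseudocount of 5) to 1407 (no filter). Of genes past 2-fold, 74.9% were higher, against 64.1% with median centring, 62.4% with TMM and 58.5% with length centring. No replicate could be left out. No paired analysis was possible because each strain has 1 library.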
